A study of Mus musculus with 12 samples.

Results

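The genes described here are the members of the mouse cytochrome P450 superfamily outside the best known drug-activating, bile acid and sterol synthesis enzymes. A gene belonged to the set if its array annotation symbol starts with Cyp and a digit, and if it had a probe set that names it alone. Cyp1a1, Cyp1a2, Cyp2e1, Cyp7a1, Cyp7b1, Cyp8b1, Cyp27a1, Cyp51 and all Cyp3a and Cyp4a genes were left out. This gave 47 of the 63 P450 genes on the array, out of 12393 genes in all, each read by the brightest of its probe sets, averaged over the 12 arrays. Of the 47, 31 passed a filter on low values and were tested among 8469 genes, and 16 did not.

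Liver RNA came from 12 adult males of strain C57BL6/J, aged 8 weeks. The 4 groups held 3 mice each, which the design text calls biological replicates. Wild-type mice received saline (mice 8, 9 and 10) or acetaminophen, abbreviated APAP, at 100 mg/kg by injection into the peritoneum (mice 12, 13 and 14). The mice labelled liver-null for Txnrd1 carried a conditional allele disrupted by albCre, a Cre recombinase driven in hepatocytes by albumin sequences, and received saline (mice 4, 5 and 16) or the same APAP dose (mice 2, 3 and 17). All livers were taken 8 hours after injection, and each was read on its own array. Whether other cells of the liver keep Txnrd1 under this Cre was not measured here. The series title concerns metabolism and APAP toxicity in mice without hepatocyte Txnrd1, and the comparisons ask how these P450 genes differed by genotype and by APAP.

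Cytochromes P450 are heme enzymes, mostly bound to the endoplasmic reticulum, that use molecular oxygen and electrons from NADPH to oxidise drugs, steroids, fatty acids and vitamins. In mouse liver, Cyp2 enzymes chiefly handle foreign compounds, steroids and arachidonic acid, Cyp4f enzymes hydroxylate fatty acids and leukotrienes, and Cyp26a1 breaks down retinoic acid. Many Cyp2 genes lie in clusters of close copies, some differ in level between males and females, and several respond to the nuclear receptors CAR and PXR, which sense foreign compounds.

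Txnrd1 itself was not lower in the livers labelled liver-null. It read 9.43 to 9.81 on the log2 scale on the 6 wild-type arrays and 10.26 to 10.58 on the 6 arrays labelled liver-null, a difference of 0.75 (SE 0.09, limma adjusted p = 0.000858). Whether its probes lie in the deleted part is not given in the sources used here, so this value does not check the labels, and every genotype direction below is that of the labels. The upper quartile of the log2 values was lower on 4 arrays, 1 in each group (mice 10, 14, 16 and 17), than on the other 8, and the labels name no batch for them. Hepatocyte markers such as Alb and Apoa1 were at the top of the scale in every liver, with a list mean of 12.55 to 12.76.

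No difference between the genotypes passed the test for any P450 gene of the set within a single treatment, and 4 passed over both treatments. Cyp2c38 and Cyp2g1 were higher in livers labelled liver-null, and Cyp4v3 and Cyp2d13 were lower. For this last comparison, the mean of the genotype differences under saline and after APAP, limma called 4 of 31 tested genes at an adjusted p under 0.05, which is 12.9% of them. Over all 8469 genes the share called was 4.46%, with 2.28% higher and 2.18% lower. The 6 arrays of each genotype did not overlap for Cyp2c38 and Cyp4v3, against 4.36% of all tested genes. They did not overlap for Cyp2b9 either, which is not counted here because it passed the low filter only on arrays labelled liver-null. The count of 4 depended on the arrays: it was 7 with the array set as a covariate, against 10.4% of all tested genes, and 2, Cyp2c38 and Cyp4v3, on the 8 arrays with the higher upper quartile, against 5.37%. The median difference of the 31 genes was -0.02, against -0.012 for all tested genes. Without the filter, the median of all 47 genes was 0.01, against -0.008 over all genes.

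**Figure D1:**
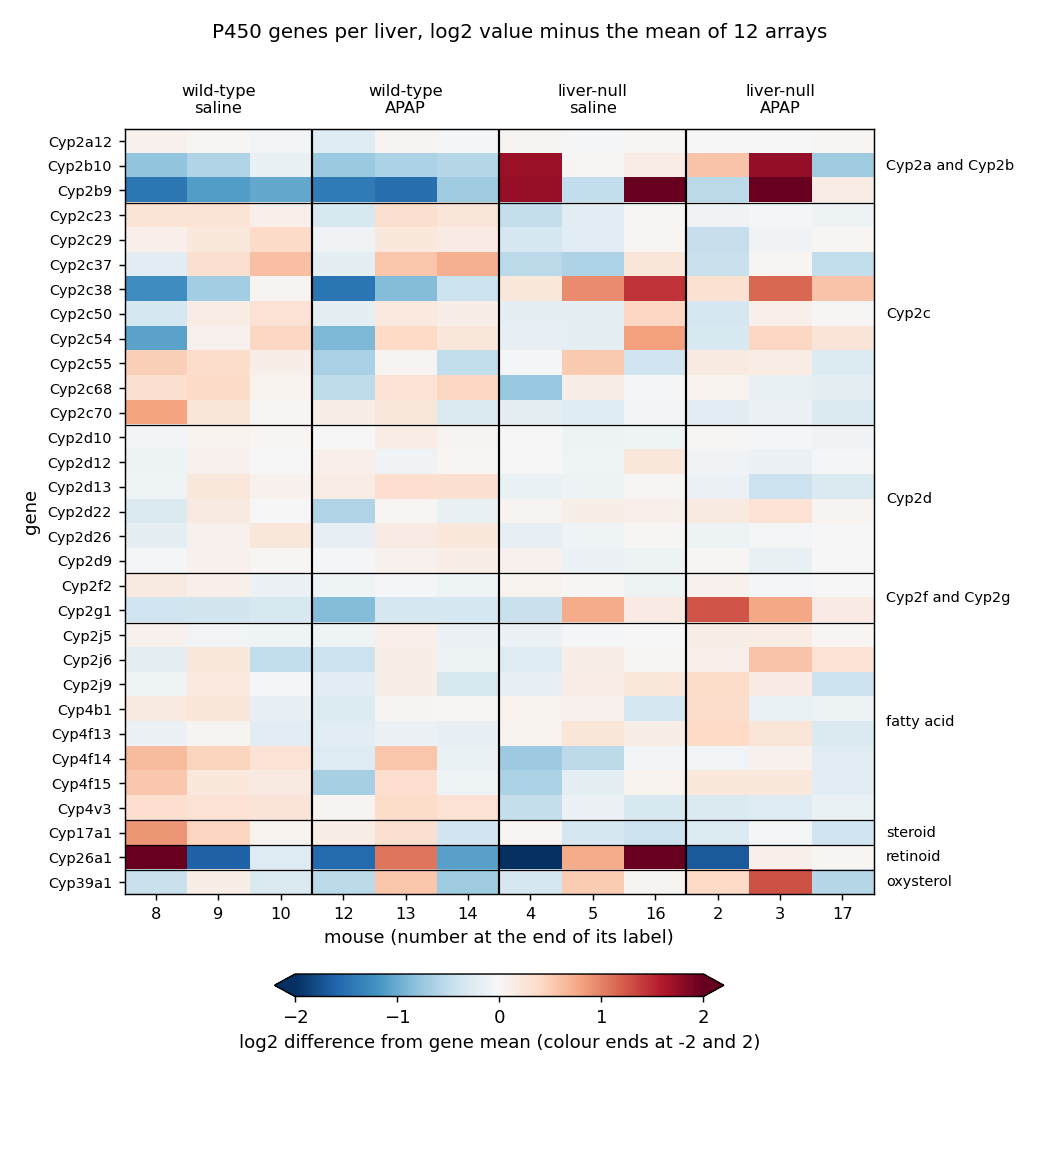
Heat map of the 31 tested P450 genes (rows, grouped by role) in the 12 livers (columns, grouped by genotype and treatment), coloured by how far the log2 value lay from the mean of that gene over 12 arrays, with colours ending at -2 and 2. Cyp2b9, Cyp2b10 and Cyp2c38 have redder group averages in the livers labelled liver-null, most other rows are pale, and Cyp26a1 changes from liver to liver within every group.

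Under saline, limma called 0 of 31 genes (0.638% of all tested genes), and 9 had an unadjusted p under 0.05, 2 of them higher and 7 lower (12.2% of all tested genes). The arrays of the 2 saline groups did not overlap for 11 of the 31 genes, Cyp2b9 among them, against 15.2% of all tested genes. After APAP, limma called 0 of 31 genes between the genotypes (0.768% of all tested genes), 7 had an unadjusted p under 0.05 (9.02% of all tested genes), and 6, again with Cyp2b9, did not overlap (13.9% of all tested genes). With the array set as a covariate, limma called 3 genes under saline (Cyp2c38 higher, Cyp4v3 and Cyp17a1 lower), against 2.87% of all tested genes, and 2 after APAP (Cyp2c38 higher, Cyp2d13 lower), against 2.18%. In RNA from whole liver, fewer cells of a type and less RNA per cell cannot be told apart. Of the markers of other cells, the stellate list mean was 5.03 to 5.45 on wild-type arrays and 4.59 to 5.16 on arrays labelled liver-null, with 0 of 6 genes called over both treatments. The pancreas list mean was 3.22 to 3.37 against 2.82 to 2.98. Of its 3 tested genes, 1, Cela1, was called lower by 1.77 (SE 0.16, limma adjusted p = 0.000223), against 2.18% of all tested genes called lower. The other tested pancreas genes were not called, with -0.14 for Cela2a and 0.11 for Prss2, and Cpa1 and Cpb1 were under the low filter. Cela2a and Prss2 read no higher than 2.84, below the array medians of 2.91 to 2.99, while Cela1 read 5.91 to 8.41. The part of either list in the P450 differences was not tested.

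**Figure D2:**
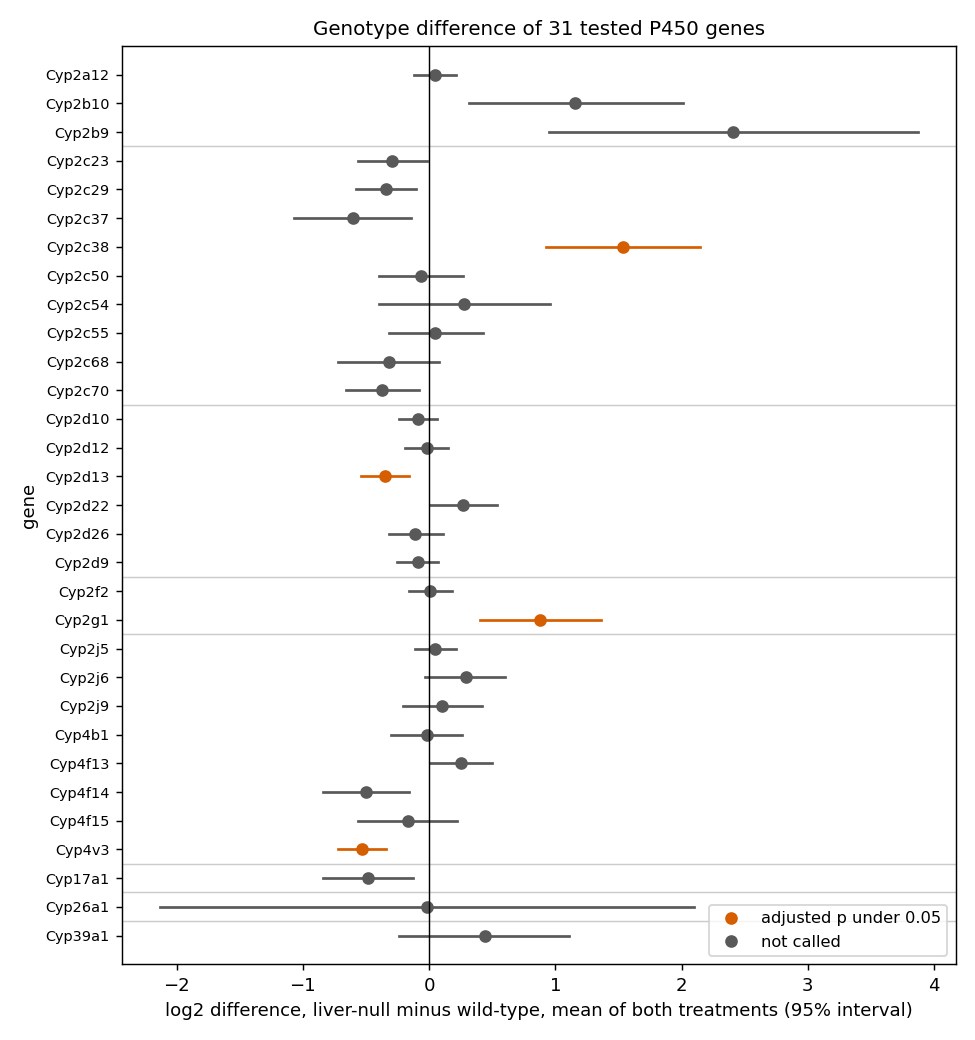
Log2 difference between livers labelled liver-null and wild-type livers, averaged over saline and APAP, for the 31 tested P450 genes, with the 95% interval of the limma fit. Orange points are the 4 genes with an adjusted p under 0.05. Cyp2b9, drawn at 2.41, rests on wild-type values below the array medians and was not called, and Cyp26a1 has the widest interval, -2.13 to 2.10.

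Among the Cyp2a and Cyp2b genes, 3 of 5 were tested and 0 were called over both treatments, against 4.46% of all tested genes. Cyp2b9, a steroid hydroxylase with female-biased expression in mouse liver, read 1.29, 1.62 and 1.71 in wild-type saline livers and 1.32, 1.22 and 2.02 in wild-type APAP livers. In livers labelled liver-null it read 4.47, 2.24 and 6.63 under saline and 2.19, 5.21 and 2.89 after APAP. Every liver labelled liver-null was above every wild-type liver, but the livers labelled liver-null were far apart among themselves, from 2.19 to 6.63. The difference over both treatments was 2.41 (SE 0.67, limma adjusted p = 0.0692). Cyp2b9 passed the low filter on 4 arrays only, all labelled liver-null, so a difference was built into its presence among the tested genes. Its wild-type values lay below the array medians of 2.91 to 2.99, as did the values 2.24, 2.19 and 2.89 in livers labelled liver-null. No fold is drawn from these values.

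Cyp2b10, the classic target gene of CAR, read 3.22, 3.40 and 3.85 in wild-type saline livers and 3.26, 3.38 and 3.43 in wild-type APAP livers. The values in livers labelled liver-null were 5.72, 4.03 and 4.15 under saline and 4.57, 5.76 and 3.30 after APAP. All but mouse 17 of the livers labelled liver-null exceeded every wild-type liver. The difference was 1.16 (SE 0.39, limma adjusted p = 0.129), and it was 1.71 within the 8 arrays with the higher upper quartile and 0.08 within the other 4. The other Cyp2b10 probe sets gave 1.88 (SE 0.53, limma adjusted p over all probe sets = 0.115) and 2.05 (SE 0.47, limma adjusted p over all probe sets = 0.0501), each larger than the 1.16 of the brightest probe set. Both carry the platform's suffix for probe sets that may match several related transcripts. On wild-type arrays they read 1.86 to 2.75 and 2.27 to 3.34, mostly below the array medians of 2.91 to 2.99. The genotypes overlapped for both. Cyp2a12, which hydroxylates steroids, ranged from 10.98 to 11.31 over all 12 livers, and its difference was 0.05 (SE 0.07, 95% interval -0.12 to 0.21). Cyp2b13 and Cyp2b19 stayed under the filter, with a highest single value of 2.85 for Cyp2b13 in mouse 16, the liver in which Cyp2b9 was also highest.

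The starts of Cyp2b10 and Cyp2b9 are shown as those of the tested Cyp2b genes, which lie in 1 cluster with Cyp2b13 between them. The 250 bases before each start, from RefSeq on GRCm38.p6, were identical at 186 of 262 aligned columns (71%). Capitals mark GCGTG, the core of the xenobiotic response element, on either strand in Cyp2b10 (chr7:25897408-25897657, plus strand), and AGGTCA, a motif bound by nuclear receptors, in Cyp2b9 (chr7:26173159-26173408, plus strand).
Cyp2b10: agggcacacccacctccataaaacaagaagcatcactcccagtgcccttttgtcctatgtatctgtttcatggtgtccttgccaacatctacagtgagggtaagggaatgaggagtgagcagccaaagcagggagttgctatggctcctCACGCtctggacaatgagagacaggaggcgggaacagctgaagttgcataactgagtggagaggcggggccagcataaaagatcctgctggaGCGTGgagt
Cyp2b9: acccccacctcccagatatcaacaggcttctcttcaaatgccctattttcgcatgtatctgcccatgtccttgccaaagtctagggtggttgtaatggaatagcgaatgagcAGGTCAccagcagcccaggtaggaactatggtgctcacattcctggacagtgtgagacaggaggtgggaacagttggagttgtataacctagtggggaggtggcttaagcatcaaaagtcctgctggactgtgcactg
GCGTG was found on either strand of 28.2% and AGGTCA of 14% of 32851 mouse promoters of this length, and of 10 and 9 of the 41 promoters listed for 35 of the 47 genes. A match is a stretch of letters, not a measured binding site.

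Of the Cyp2c genes, which oxidise arachidonic acid and drugs, 9 of 11 were tested and 1 was called, Cyp2c38, against 4.46% of all tested genes. Cyp2c38, an arachidonic acid oxidase, read 3.76, 4.31 and 5.06 in wild-type saline livers and 3.54, 4.13 and 4.57 in wild-type APAP livers. Livers labelled liver-null gave 5.21, 5.94 and 6.44 under saline and 5.31, 6.14 and 5.57 after APAP. No liver of either genotype reached into the range of the other, and mice 10, 14 and 16 were the highest of their groups. The difference was 1.49 under saline (SE 0.39, limma adjusted p = 0.125) and 1.59 after APAP (SE 0.39, limma adjusted p = 0.109). Over both treatments it was 1.54 (SE 0.28, 95% interval 0.93 to 2.15), a 2.91-fold higher level (limma adjusted p = 0.00975). It was 1.72 within the 8 arrays with the higher upper quartile and 1.19 within the other 4.

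The other tested Cyp2c genes did not pass the test, and most of their differences lay below 0. Cyp2c37 read 9.68, 10.22 and 10.50 in wild-type saline livers, 9.72, 10.45 and 10.61 in wild-type APAP livers, 9.35, 9.28 and 10.13 in saline livers labelled liver-null and 9.45, 9.94 and 9.41 in APAP livers so labelled. Its difference was -0.60 (SE 0.21, limma adjusted p = 0.152), and the genotypes overlapped. Cyp2c29, an arachidonic acid epoxygenase, differed by -0.34 (SE 0.11, limma adjusted p = 0.122), and Cyp2c70, which makes the muricholic acids of rodent bile, by -0.37 (SE 0.13, limma adjusted p = 0.165). The Cyp2c70 value of mouse 8, 12.24, stood above the other 11 livers, which read 11.17 to 11.70. Cyp2c23, Cyp2c68 and Cyp2c50 gave -0.29, -0.32 and -0.06, and Cyp2c54 and Cyp2c55 gave 0.28 and 0.05. The median of the 9 tested genes was -0.29, against -0.012 for all tested genes.

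The start of Cyp2c38 is shown because it was the Cyp2c gene called. Its 250 bases before the start (chr19:39463076-39463325, minus strand, GRCm38.p6, RefSeq) hold the letters TATAAA, in capitals, at bases -31 to -26 from the start.
Cyp2c38: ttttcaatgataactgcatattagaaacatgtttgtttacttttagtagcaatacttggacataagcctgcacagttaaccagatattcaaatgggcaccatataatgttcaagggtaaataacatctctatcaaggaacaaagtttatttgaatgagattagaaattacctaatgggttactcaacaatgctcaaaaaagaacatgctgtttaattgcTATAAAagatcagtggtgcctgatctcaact
TATAAA, searched on either strand after the sequence had been seen, was in 12.4% of the 32851 promoters and in 10 of the 41 promoters of the set, Cyp2c29, Cyp2c55 and Cyp2c70 among them.

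In RefSeq order along chromosome 19, Cyp2c38 lies between Cyp2c39, which stayed under the filter, and Cyp2c67, which is not in the set. The nearest tested neighbours, Cyp2c29 and Cyp2c68, gave -0.34 and -0.32 beside the 1.54 of Cyp2c38. In the Cyp2a, Cyp2b, Cyp2f and Cyp2g cluster on chromosome 7, Cyp2b10, Cyp2b9 and Cyp2g1 gave 1.16, 2.41 and 0.88, and Cyp2a12 and Cyp2f2 gave 0.05 and 0.01. Of these genes only Cyp2g1 was called. A difference was built into the presence of Cyp2b9, which passed the low filter only on arrays labelled liver-null. Probe sets of close copies can bind each other's transcripts, and the share of this in each value was not tested.

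**Figure D3:**
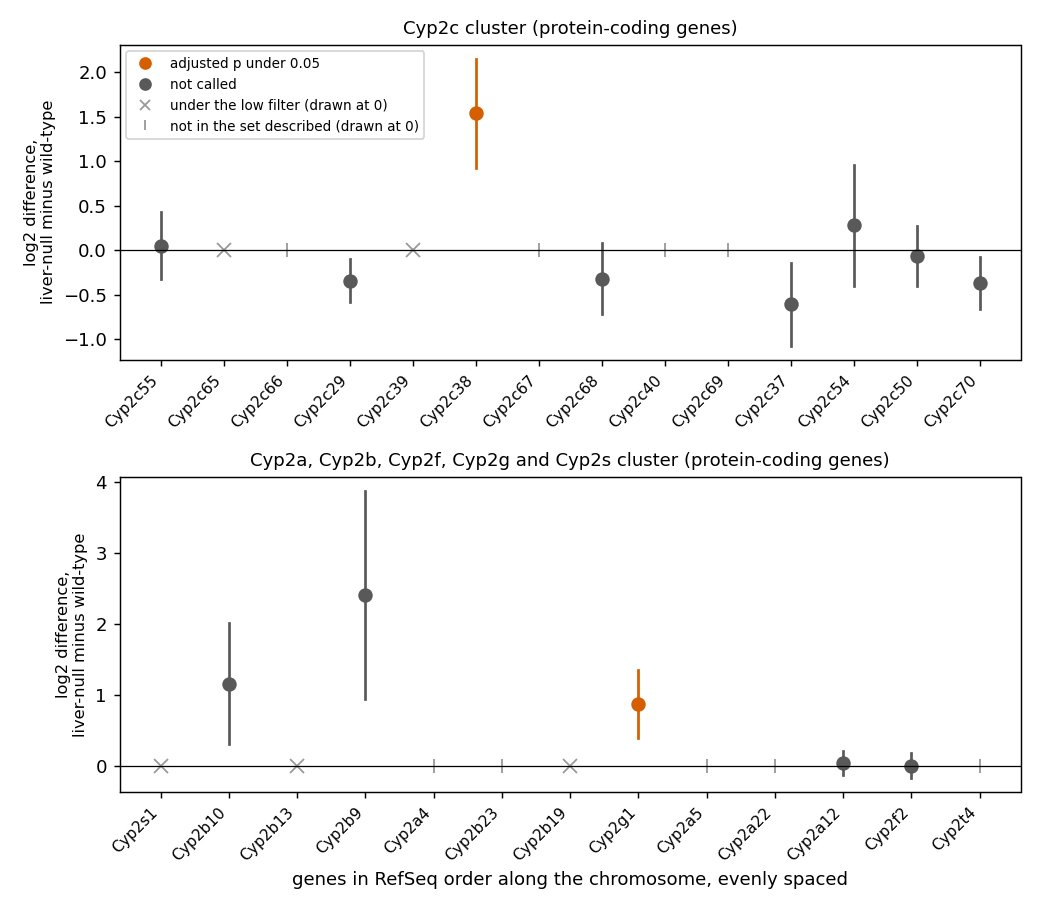
Log2 difference between livers labelled liver-null and wild-type livers over both treatments (points, with 95% intervals of the limma fit) for the protein-coding genes of the Cyp2c cluster and of the Cyp2a, Cyp2b, Cyp2f, Cyp2g and Cyp2s cluster, in RefSeq order and evenly spaced. Crosses mark genes under the low filter and ticks genes outside the set, both drawn at 0. Cyp2c38 (1.54) has its nearest tested genes on either side, Cyp2c29 and Cyp2c68, below 0. Cyp2b10, Cyp2b9 and Cyp2g1 lie above 0 while Cyp2a12 and Cyp2f2 lie near it. Of the genes drawn, only Cyp2c38 and Cyp2g1 were called, and Cyp2b9 passed the low filter only on arrays labelled liver-null.

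Of the Cyp2d genes, which hydroxylate steroids and basic drugs, 6 of 7 were tested and 1 was called, against 4.46% of all tested genes. This was Cyp2d13, which RefSeq lists as a transcribed pseudogene. It read 7.84, 8.14 and 8.01 in wild-type saline livers and 8.07, 8.26 and 8.24 in wild-type APAP livers. In livers labelled liver-null it read 7.79, 7.81 and 7.94 under saline and 7.80, 7.49 and 7.63 after APAP. The genotypes overlapped under saline and did not after APAP. The difference over both treatments was -0.35 (SE 0.09, 95% interval -0.54 to -0.16), a 1.28-fold lower level (limma adjusted p = 0.0431). This call was made in 9 of 21 other fits, with adjusted p from 0.00231 to 0.164. Leaving out a single array ended it for mice 3, 4, 5, 9, 10, 12, 13, 14 and 17, with differences of -0.38 to -0.31 in those fits. The dimmer Cyp2d13 probe set read 5.33 to 5.94 on wild-type arrays and 4.75 to 5.0 on arrays labelled liver-null. Its difference was -0.66 (SE 0.09, limma adjusted p over all probe sets = 0.00324), with no overlap.

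The other Cyp2d genes did not pass the test. Cyp2d10 ranged from 12.60 to 12.85 and Cyp2d9, a testosterone hydroxylase with male-biased expression, from 11.98 to 12.25, and each differed by -0.09 between genotypes (SE 0.07). Cyp2d26 gave -0.11 and Cyp2d12 -0.02. Cyp2d22, often regarded as the mouse counterpart of human CYP2D6, gave 0.27 (SE 0.12, limma adjusted p = 0.275), and its lowest livers were mice 12 and 8, at 8.68 and 8.99.

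Cyp2g1, best known from the olfactory epithelium, was the other gene called higher. It read 3.28, 3.31 and 3.35 in wild-type saline livers and 2.80, 3.33 and 3.32 in wild-type APAP livers. The values in livers labelled liver-null were 3.22, 4.41 and 3.84 under saline and 4.93, 4.45 and 3.83 after APAP. Mouse 4 lay within the wild-type range, and the other 5 livers labelled liver-null were above all wild-type livers. The wild-type values lay near the array medians of 2.91 to 2.99, so the fold given next rests on dim values. The difference was 0.88 (SE 0.22, 95% interval 0.40 to 1.36), a 1.84-fold higher level (limma adjusted p = 0.0439). It was 1.07 within the 8 arrays with the higher upper quartile and 0.50 within the other 4. This call was made in 9 of 21 other fits, with adjusted p from 0.0015 to 0.102. Leaving out a single array ended it for mice 2, 3, 5, 8, 9, 10, 12, 13, 14 and 16, with differences of 0.73 to 0.93 in those fits. Cyp2f2, which activates naphthalene, ranged from 11.77 to 12.06 and differed by 0.01 (SE 0.08, 95% interval -0.16 to 0.18).

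**Figure D4:**
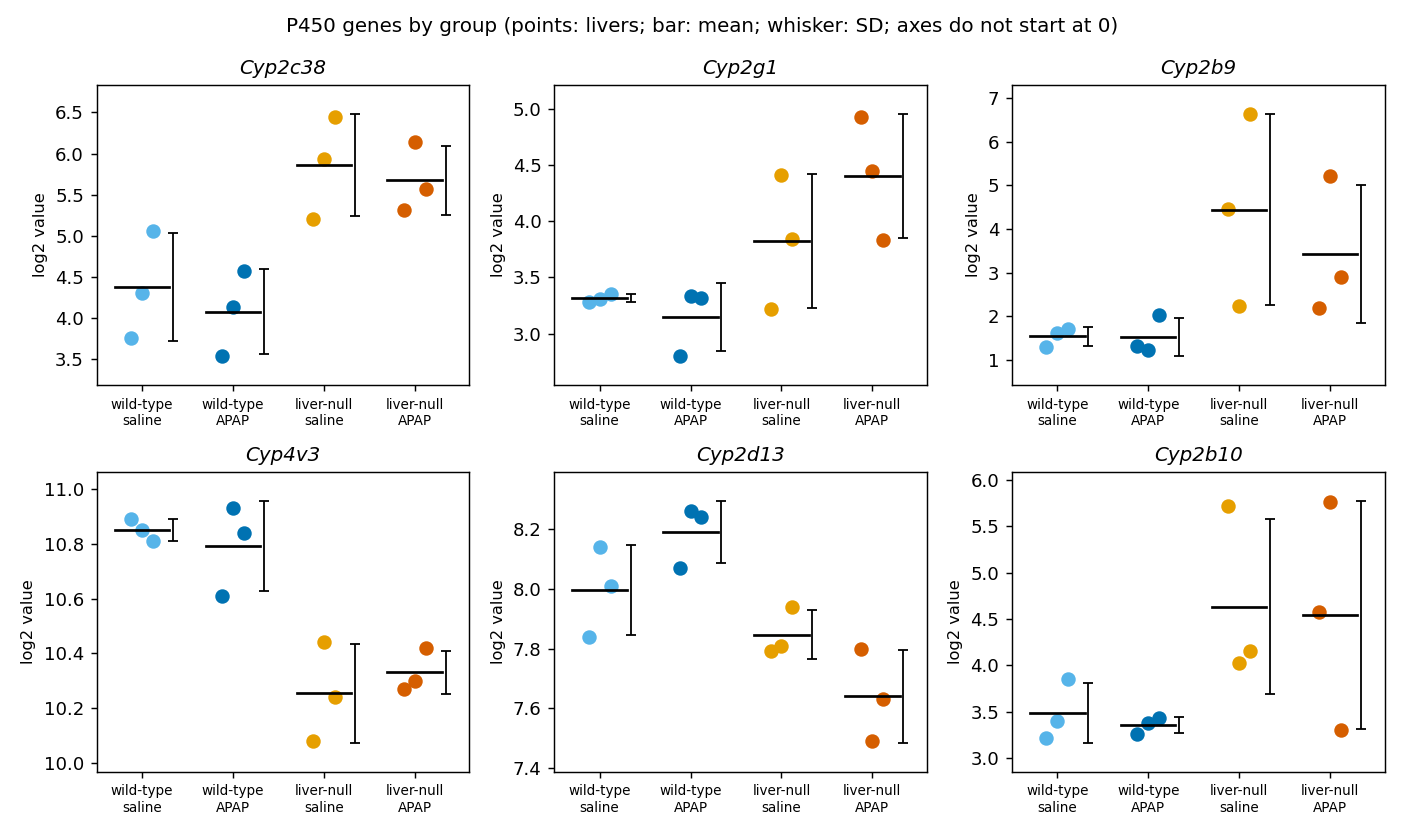
Log2 values of Cyp2c38, Cyp2g1, Cyp2b9, Cyp4v3, Cyp2d13 and Cyp2b10 in the 12 livers (points), with group means (bars) and SD (whiskers, n = 3), by genotype and treatment, on axes that do not start at 0. Cyp2c38 is higher and Cyp4v3 lower in livers labelled liver-null with no overlap between the genotypes, Cyp2b9 also does not overlap but was not called, and Cyp2b9 and Cyp2b10 have the widest whiskers, in the groups labelled liver-null.

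Of the Cyp2j and Cyp4 genes that act on fatty acids, 8 of 11 were tested and 1 was called, Cyp4v3, against 4.46% of all tested genes. Cyp4v3, the fatty acid hydroxylase whose human counterpart CYP4V2 is mutated in a crystalline retinal dystrophy, read 10.89, 10.85 and 10.81 in wild-type saline livers and 10.61, 10.93 and 10.84 in wild-type APAP livers. Livers labelled liver-null gave 10.08, 10.44 and 10.24 under saline and 10.27, 10.30 and 10.42 after APAP. Every liver labelled liver-null was below every wild-type liver. The difference was -0.60 under saline (SE 0.12, limma adjusted p = 0.0564) and -0.47 after APAP (SE 0.12, limma adjusted p = 0.147). Over both treatments it was -0.53 (SE 0.09, 95% interval -0.72 to -0.34), a 1.45-fold lower level (limma adjusted p = 0.00601). These values come from the brightest probe set, which carries the platform's suffix for probe sets that may match several related transcripts. Its other probe set, without that suffix, gave -0.57 (SE 0.13, limma adjusted p over all probe sets = 0.0555), and there the genotypes overlapped.

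Cyp4v3 and Cyp2c38 were called in all of the 21 other fits, with adjusted p from 0.0007 to 0.0383 for Cyp4v3 and from 0.000203 to 0.0301 for Cyp2c38. Apart from the mean of a gene's probe sets, these fits read Cyp4v3 by its brightest probe set alone. The Cyp4v3 difference was -0.55 within the 8 arrays with the higher upper quartile and -0.50 within the other 4. The start of Cyp4v3 is shown as that of the gene with the lowest adjusted p in the set (chr8:45333164-45333413, minus strand, GRCm38.p6, RefSeq), with GCGTG in capitals.
Cyp4v3: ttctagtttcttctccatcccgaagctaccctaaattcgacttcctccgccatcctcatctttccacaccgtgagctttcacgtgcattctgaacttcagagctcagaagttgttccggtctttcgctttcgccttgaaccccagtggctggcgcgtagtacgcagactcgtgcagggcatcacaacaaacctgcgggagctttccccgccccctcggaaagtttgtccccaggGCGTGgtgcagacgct
The antioxidant response element core TGACNNNGC, searched on either strand, was in 10.2% of the 32851 promoters and in those of Cyp4f14 and Cyp4f18 within the set. TTCNNNGAA, the letters of STAT sites, was in 7.02% of them and in those of Cyp4b1 and Cyp4f13. No match in these windows says only that the letters are not there.

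Cyp4f14, which hydroxylates leukotriene B4, read 9.40, 9.21 and 9.06 in wild-type saline livers, 8.52, 9.32 and 8.64 in wild-type APAP livers, 8.04, 8.25 and 8.71 in saline livers labelled liver-null and 8.71, 8.86 and 8.55 in APAP livers so labelled. The saline groups did not overlap, with a difference of -0.88 (SE 0.22, limma adjusted p = 0.105), and the APAP groups overlapped, with a difference of -0.12 (SE 0.22). Its neighbour Cyp4f15 gave -0.55 under saline (SE 0.25, limma adjusted p = 0.398) and 0.21 after APAP. Among the others, Cyp2j5, which makes epoxides of arachidonic acid, ranged from 10.81 to 11.08 and differed by 0.05 (SE 0.07). Cyp2j6, Cyp4f13, Cyp2j9 and Cyp4b1 gave 0.29, 0.25, 0.10 and -0.02, and none passed the test.

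Of the genes for steroids, vitamins, retinoids and oxysterols, 3 of 9 were tested and 0 were called over both treatments, against 4.46% of all tested genes. Cyp17a1, a hydroxylase and lyase of steroid synthesis, read 3.95, 3.49 and 3.14 in wild-type saline livers, 3.19, 3.39 and 2.68 in wild-type APAP livers, 3.10, 2.73 and 2.64 in saline livers labelled liver-null and 2.79, 3.02 and 2.66 in APAP livers so labelled. Its difference was -0.48 (SE 0.16, limma adjusted p = 0.135). Markers of adrenal tissue read near the bottom of the scale, with a list mean of 1.66 to 1.93, and 0 of 4 passed the low filter. Cyp39a1, which hydroxylates an oxysterol on the way to bile acids, gave 0.44 (SE 0.31, limma adjusted p = 0.559), with mouse 3 highest at 7.89 and mouse 14 lowest at 5.90.

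Cyp26a1, the main retinoic acid hydroxylase of liver, had the widest spread within groups of the 31 tested genes. It read 8.96, 3.85 and 5.21 in wild-type saline livers and 3.91, 6.53 and 4.37 in wild-type APAP livers. In livers labelled liver-null it read 3.41, 6.20 and 8.28 under saline and 3.78, 5.56 and 5.50 after APAP. Mice 8 and 16, 1 of each genotype, were the highest livers, and all groups overlapped. The values spanned 5.54 on the log2 scale, or 46.7-fold, with a within-group SD of 2.00, at percentile 100 of the 8469 tested genes. The genotype difference was -0.02 with an SE of 0.97 and a 95% interval of -2.13 to 2.10, so a change of several-fold in either direction was not detectable. Leaving out mouse 8 turned it to 0.72, and over all single arrays left out it ran from -0.59 to 0.72. It was -1.07 within the 8 arrays with the higher upper quartile and 2.10 within the other 4.

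The start of Cyp26a1 (chr19:37697558-37697807, plus strand, GRCm38.p6, RefSeq) is shown because it carries, in capitals, the letters AGTTCA repeated after 5 other bases on the reverse strand, known from retinoic acid response elements.
Cyp26a1: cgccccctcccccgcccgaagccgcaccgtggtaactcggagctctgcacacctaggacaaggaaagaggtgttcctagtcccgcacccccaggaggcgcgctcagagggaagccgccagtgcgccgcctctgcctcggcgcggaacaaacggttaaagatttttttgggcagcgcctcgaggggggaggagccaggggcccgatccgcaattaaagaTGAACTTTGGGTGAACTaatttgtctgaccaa
The letters read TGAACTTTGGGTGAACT on the gene's strand, at bases -32 to -16 from the start. This repeat was searched after the sequence had been seen, and it was in 7 of the 32851 promoters (0.0213%), 1 of them in the set.

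APAP at this dose and time gave no call in the set in either genotype. In wild-type livers, limma called 0 of 31 genes (0% of all tested genes), 1 had an unadjusted p under 0.05 (1.69% of all tested genes), and 1 did not overlap between the groups (5.02% of all tested genes). In livers labelled liver-null, limma called 0 of 31 genes (0% of all tested genes), 0 had an unadjusted p under 0.05 (0.697% of all tested genes), and 1, Cyp2j5 with a difference of 0.15 (SE 0.10), did not overlap (4.89% of all tested genes). The wild-type gene was Cyp2c55, an enzyme of arachidonic acid and hydroxylated fatty acid formation best known from the colon. It read 3.44, 3.31 and 3.08 under saline and 2.31, 3.01 and 2.47 after APAP in wild-type livers, and 2.94, 3.48 and 2.56 against 3.14, 3.11 and 2.69 in livers labelled liver-null. These are dim values, around the array medians of 2.91 to 2.99, with the wild-type APAP values 2.31 and 2.47 below them. The APAP difference in wild-type livers was -0.68 (SE 0.24, limma adjusted p = 1.0), and in livers labelled liver-null it was -0.01 (SE 0.24). The saline livers of each genotype served in both the genotype and the APAP comparisons.

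No difference with APAP passed the test in the other role groups either. Cyp4f14 gave -0.40 (SE 0.22) with wild-type and 0.37 (SE 0.22) with livers labelled liver-null, and Cyp4f15 gave -0.45 (SE 0.25) and 0.32 (SE 0.25). Cyp17a1 gave -0.44 (SE 0.23) and 0.00 (SE 0.23), and Cyp26a1 -1.07 (SE 1.37) and -1.02 (SE 1.37). Cyp2g1 gave 0.58 (SE 0.31) in livers labelled liver-null and -0.17 (SE 0.31) in wild-type livers, and Cyp2c70 -0.33 (SE 0.19) in wild-type livers. The Cyp2b9 value of -1.02 (SE 0.94) in livers labelled liver-null rested on mouse 16, since it was 0.07 without that liver. The median APAP difference of the 31 genes was -0.12 for wild-type and 0.01 for livers labelled liver-null, against -0.017 and 0.019 for all tested genes.

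The interaction, the APAP difference in livers labelled liver-null minus that in wild-type livers, was called by limma for 0 of 31 genes (0% of all tested genes). Of the 31, 2 had an unadjusted p under 0.05, against 1.29% of all tested genes. They were Cyp4f14, with an interaction of 0.77 (SE 0.31, limma adjusted p = 0.999), and Cyp2d13, with -0.40. For Cyp4f14, wild-type saline was the highest group mean, 9.22 ± 0.17 (SD, n = 3), and saline livers labelled liver-null the lowest, 8.34 ± 0.34 (SD, n = 3).

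**Figure D5:**
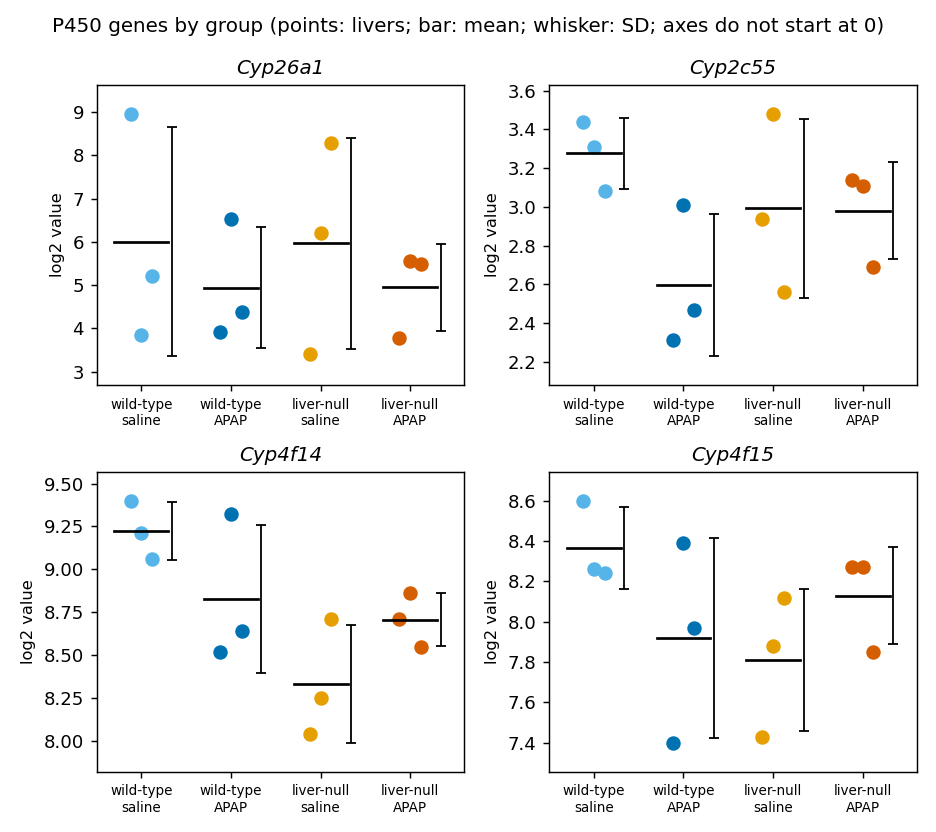
Log2 values of Cyp26a1, Cyp2c55, Cyp4f14 and Cyp4f15 in the 12 livers (points), with group means (bars) and SD (whiskers, n = 3), by genotype and treatment, on axes that do not start at 0. Cyp26a1 spans 3.41 to 8.96 with overlap in all groups, Cyp2c55 does not overlap between saline and APAP in wild-type livers and overlaps in livers labelled liver-null, and both Cyp4f genes have their highest group mean in wild-type saline livers. The Cyp2c55 values, 2.31 to 3.48, lay around the array medians of 2.91 to 2.99. None of the genes shown was called.

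The set held both very steady and very variable genes. The median within-group SD was 0.27 for the 31 genes and 0.21 for all tested genes. Cyp2d10 (0.06), Cyp2d9 (0.08), Cyp2j5 (0.08), Cyp2a12 (0.09) and Cyp2f2 (0.09) had the smallest SDs, and for these genes the 95% intervals of the genotype difference lay between -0.25 and 0.21. Cyp26a1 (2.00), Cyp2b9 (1.37), Cyp2b10 (0.79), Cyp39a1 (0.63) and Cyp2c54 (0.63) had the largest. The probe sets of 16 of the 31 genes read at or above percentile 90 of all probe sets on the array, and those with the highest means were Cyp2d10, Cyp2d9, Cyp2f2, Cyp2c29 and Cyp2d26. Brightness depends on the probes as well as on the RNA, so no order of RNA levels between genes is drawn.

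The 16 genes under the filter had means of 1.15 to 2.23, and they read no higher than 2.85 in any liver. They were Cyp4f18, Cyp2c39, Cyp24a1, Cyp4f16, Cyp2b13, Cyp1b1, Cyp46a1, Cyp21a1, Cyp2s1, Cyp2j13, Cyp11a1, Cyp2d34, Cyp2c65, Cyp11b2, Cyp2b19 and Cyp27b1. Several act chiefly outside the liver, such as Cyp11a1, Cyp11b2 and Cyp21a1 in adrenal steroid synthesis, Cyp27b1 and Cyp24a1 in renal vitamin D metabolism and Cyp46a1 in brain cholesterol turnover. Without the filter, limma called 3 of 47 genes over both treatments (2.88% of all 12393 genes), which were Cyp2c38, Cyp4v3 and Cyp2d13, and none of the 16.

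In a list of electron suppliers and heme-binding partners of P450 enzymes, 8 of 11 genes were tested and 1 was called over both treatments, against 4.46% of all tested genes. Pgrmc1, a heme-binding partner of P450 enzymes, was higher by 0.29 (SE 0.07, limma adjusted p = 0.0292). Pgrmc2 gave -0.30 (SE 0.10, limma adjusted p = 0.134). The tested electron suppliers, Cyb5a, Cyb5b, Cyb5r1, Cyb5r3, Cyb5r4 and Fdx1, were not called. Among transcriptional regulators of P450 genes, 20 of 23 were tested and 2 fell, against 2.18% of all tested genes called lower. Foxa3, a liver forkhead factor, fell by 0.78 (SE 0.15, limma adjusted p = 0.0166), and Nfe2l2, which encodes NRF2, fell by 0.76 (SE 0.11, limma adjusted p = 0.00418). Nr1i3, which encodes CAR, differed by 0.84 (SE 0.23, limma adjusted p = 0.0683), and Nr1i2, which encodes PXR, by 0.52 (SE 0.21, limma adjusted p = 0.232). Of the 6 tested P450 genes listed as CAR targets, 0 were called, against 4.46% of all tested genes. Cyp2b9, Cyp2b10 and Cyp2c55 (0.05) lay above 0, and Cyp2c29, Cyp2c37 and Cyp2c50 (-0.06) below 0. Cyp2b9 passed the low filter only on arrays labelled liver-null. Of 11 tested heme genes, Blvrb, a biliverdin reductase, was called higher by 1.08 (SE 0.16, limma adjusted p = 0.00343), against 2.28% of all tested genes called higher, and Alas1, which starts heme synthesis, gave 0.24 (limma adjusted p = 0.507).

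The zonation and sex lists were read for their P450 members. Of 11 tested pericentral genes, the 4 P450 members (Cyp2c29, Cyp2c37, Cyp2c50 and Cyp2c54) were not called. Rhbg, an ammonia transporter, was called higher by 1.29 (SE 0.12, limma adjusted p = 0.000243), against 2.28% of all tested genes called higher. Glul, Oat, Slc1a2, Tbx3, Lgr5 and Axin2 gave -0.01, 0.01, 0.03, 0.04, -0.04 and -0.14 and were not called. Of 8 tested male-biased genes 5 fell (against 2.18% of all tested genes called lower), namely Slco1a1, C6, C8a, Susd4 and Hsd3b5, the last by 2.57 (SE 0.64, limma adjusted p = 0.0454), while Cyp2d9 gave -0.09. That list was made with earlier results of these data known and is no independent evidence of its direction. Of 4 tested female-biased genes, limma called 0 over both treatments, against 4.46% of all tested genes. The 3 P450 members gave 2.41 (Cyp2b9), 0.44 (Cyp39a1) and -0.48 (Cyp17a1). Cyp2b9 passed the low filter only on arrays labelled liver-null, and its wild-type values were dim. The female-biased list, too, was chosen with earlier results of these data known.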

How the data were processed

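The authors deposited 1 log2 value for each probe set and array, from RMA (background correction, normalization and probe summary), per the submitters' processing notes. The sources used here do not give its version or settings. Of 22690 probe sets, 20380 had 1 gene symbol in the platform annotation, 691 had several, 1555 had none and 64 were controls. A gene was tested if its value exceeded the array's percentile 40 on at least 3 of 12 arrays. Differences were fitted with limma 3.58.1 in R 4.3.3 (a mean for each of 4 groups, 8 residual degrees of freedom, eBayes), and the script was tested on simulated data. Calls used a two-sided Benjamini-Hochberg adjusted p under 0.05 over all tested genes, unless all probe sets are named. The arrays correlated at 0.986 to 0.998, and their number limits the precision. Genes were named if called, if among the 2 largest differences of a role group, if among the 5 highest means, or, outside the set, if called in a list, with others named after their values were seen. The genes and lists were chosen with earlier results of these data known. Sequences came from RefSeq promoters (35 of 47 genes matched). Alternatives were other filters, scalings, probe sets, array weights, an array-set covariate and left-out arrays.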

Additional observations from a re-analysis of the deposited data

Results flagged for a closer look

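A signal stood out in a probe set that names both Cyp2a5, which oxidises coumarin and nicotine, and Cyp2a4, a steroid hydroxylase, and so is outside the set. It read 11.27, 12.28 and 12.56 in wild-type saline livers and 10.72, 12.10 and 12.54 in wild-type APAP livers. In livers labelled liver-null it read 13.44, 13.69 and 13.44 under saline and 13.53, 13.51 and 13.38 after APAP, with no overlap between the genotypes. The difference over both treatments was 1.59 (SE 0.29), a 3.0-fold higher level (limma adjusted p over all probe sets = 0.0177). The wild-type livers also spread more, with an SD of 0.68 under saline and 0.95 after APAP against 0.14 and 0.08. The values in livers labelled liver-null lay near those of Alb, 13.66 to 13.85, at the top of the scale. Whether the array compresses the fold and the spread at that level was not tested. Which of these genes gave the signal was not tested.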

How the results depend on the processing

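The 4 calls over both treatments became 7 with the array set as a covariate (10.4% of all tested genes), 13 with array weights (16.6%) and 2, Cyp2c38 and Cyp4v3, within the 8 arrays with the higher upper quartile (5.37%), a fit chosen after seeing the data. Over all genes, 378 calls became 882, 1409 and 455 in these fits, and 590 with quantile normalization. Leaving out 1 array gave 2 to 5 calls, and 2 remained (Cyp2c38 and Cyp4v3) without mouse 3, 9, 10, 12, 13 or 14, while the share called over all genes ran from 2.46% to 4.91%. The 0 calls under saline became 3 with the covariate, 9 with array weights, and 1 with quantile normalization and with a trended, robust variance prior, and 0 to 1 when an array was left out. The 0 calls after APAP became 2 with the covariate, 4 with array weights and 1 with the mean of a gene's probe sets, and the 54 and 65 calls over all genes became 243 and 185 with the covariate and 1323 and 210 with array weights. The APAP and interaction counts stayed at 0 in the alternatives run.

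Values that changed sign were all uncalled. For Cyp26a1, the APAP difference in wild-type livers became 0.91 with array weights and 0.40 without mouse 8, and the genotype difference became 0.48 with array weights and 0.38, 0.72, 0.28 and 0.62 without mice 13, 8, 2 and 4. Over all arrays left out in turn, these ran from -2.15 to 0.40 and from -0.59 to 0.72, and the genotype difference was -1.07 within the 8 arrays and 2.10 within the other 4. For Cyp2b10, the wild-type APAP difference became 0.01 within the 8 arrays and 0.04 without mouse 10 (left-out arrays: -0.27 to 0.04). For Cyp2b9, the APAP difference in livers labelled liver-null became 0.34 within the 8 arrays, 1.17 with array weights and 0.07 without mouse 16 (left-out arrays: -2.12 to 0.07). The same difference became 0.03 with the other probe set for Cyp2d13. For Cyp39a1 it became -0.16 without mouse 3 (left-out arrays: -0.16 to 0.76) and -0.62 within the other 4 arrays. The genotype difference of Cyp2f2 became -0.01 within the 8 arrays and with quantile normalization, -0.02 with array weights, and -0.03, -0.01 and -0.01 without mice 10, 2 and 4. The APAP difference of Cyp2f2 in wild-type livers became 0.03 within the other 4 arrays. The causes were not tested.

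No paired analysis was possible because no mouse number is shared between groups. A fit of only the arrays compared was not run for the interaction and for both treatments together, which use all 12 arrays. With 3 arrays a group and no detection calls, small differences of dim or variable genes were not detectable.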
